A study of Mus musculus with 8 samples.

Results

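The levels of 9 marker genes of T and B lymphocytes were followed through the kidney transcriptomes of diabetic mice given recombinant FGF4 (rFGF4) or left as db/db controls. They are 9 of the 55401 genes in the deposited expression table, found there by gene name. The T cell genes are Cd3e, Cd3g, Cd4, Cd8a and Lck (5 genes), and the B cell genes are Cd79a, Cd79b, Ms4a1 and Cr2 (4 genes). All 9 were present in the table. The main picture is that the level of these genes differed far more between single kidneys than between the treatment groups. The kidney of db/db mouse 5 held the highest level of every one of the 9, and none of the 9 was called in rFGF4 against db/db. Only 2 of them were high enough for the main test, which called 1.52% of all genes tested, so a count of 0 is near the background.

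Poly(A) RNA from whole kidney was sequenced in 8 mice, 4 per group. The control group, labelled db/db model, holds mice 2, 3, 4 and 5, and the treated group, labelled rFGF4 treatment, holds mice 1, 2, 3 and 5. The db/db mouse lacks the signalling form of the leptin receptor and develops obesity, type 2 diabetes and kidney disease. rFGF4 is an N-terminally truncated human fibroblast growth factor 4. The animals were males by the study's methods, which describe repeated intraperitoneal dosing with rFGF4 or, for controls, with phosphate-buffered saline. The labels of the treated samples name the treatment in place of a genotype, and the series' design text places both groups in db/db mice. The study's text describes its sequenced kidneys as coming from streptozotocin-treated mice instead. That difference could not be settled from the files. Age, dose and duration are not in the labels. Each label names a separate animal number with 1 library, and the p-values measure only the spread between these libraries.

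Lymphocytes recognise antigen through receptors that cannot signal alone. In T cells the CD3 chains, among them those encoded by Cd3e and Cd3g, carry the signal of the T cell receptor, the co-receptors Cd4 and Cd8a bind class II and class I MHC molecules, and the kinase Lck phosphorylates the CD3 chains. In B cells Cd79a and Cd79b form the signalling pair of the B cell receptor, Ms4a1 encodes the surface protein CD20, and Cr2 encodes complement receptor 2 (CD21), which follicular dendritic cells also carry. The healthy kidney has few lymphocytes, and infiltrating T and B cells are described in diabetic kidney disease. In RNA from a whole kidney, fewer cells of a type and less RNA per cell cannot be told apart.

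The genes lie on 7 chromosomes, given here in GRCm38 coordinates found by matching the deposited Ensembl identifiers to the GENCODE M21 annotation. Cd3e (ENSMUSG00000032093) lies at chr9:44998740-45009627 and Cd3g (ENSMUSG00000002033) at chr9:44969572-44980431, both on the minus strand and together within a span of 40.1 kb. Cd4 (ENSMUSG00000023274) lies at chr6:124864692-124888221 on the minus strand and Cd8a (ENSMUSG00000053977) at chr6:71373427-71379173 on the plus strand. Lck (ENSMUSG00000000409) lies at chr4:129548344-129573641 on the minus strand. Among the B cell genes, Cd79a (ENSMUSG00000003379) lies at chr7:24897381-24902197 on the plus strand and Cd79b (ENSMUSG00000040592) at chr11:106311341-106314762 on the minus strand. Ms4a1 (ENSMUSG00000024673) lies at chr19:11249675-11266241 and Cr2 (ENSMUSG00000026616) at chr1:195136811-195176716, both on the minus strand. Exons of Cd3e overlap the annotated gene Gm48719, and exons of Lck overlap the microRNA gene Mir8119. The use of strand in counting is not given in the sources used here, so reads in these overlaps cannot be told apart.

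Promoters of the 9 genes were searched for short motifs of lymphocyte transcription factors, which does not bear on differences between kidneys. RefSeq promoter windows (GRCm38.p6, 250 bases before to 50 bases after the start) were at hand for 6 of the 9 genes and made up 7 windows, since Lck has 2. The E-box CAGGTG, a motif of the E proteins that act in both lymphocyte lineages, was searched on both strands (its other strand reads CACCTG). It was found in 6 of the 7 windows, those of Cd3e, Cd3g, Cd79a, Cr2 and both of Lck, and not in that of Cd8a. Of all 32851 promoter windows of this length, 20.2% hold it. The 7 matches are shown 5′ to 3′ on the strand of the gene, with the E-box in capitals and its surroundings in lower case, so that the T cell and B cell genes can be set side by side.
Cd3e (chr9:45009591-45009620, minus strand, from 4 bases after the start): gtggggttcagaCACCTGcctcccctgtct
Cd3g (chr9:44980449-44980478, minus strand, from 35 bases before the start): agagggcggagaCACCTGgtattgcctcta
Cd3g (chr9:44980562-44980591, minus strand, from 148 bases before the start): ctcatcccctgcCACCTGctatcctgcaag
Lck (chr4:129558418-129558447, minus strand, from 63 bases before the start): gtttgcccatccCAGGTGggagggtgggac
Lck (chr4:129573601-129573630, minus strand, from 24 bases after the start): ggcgcgaggagaCAGGTGgtgactacgacg
Cd79a (chr7:24897331-24897360, plus strand, from 154 bases before the start): ttgtggccagccCAGGTGcagggcagttcc
Cr2 (chr1:195176790-195176819, minus strand, from 88 bases before the start): tccgcccctagtCACCTGcagttgtgcttc

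The ETS core GGAA was found in 7 of the 7 windows, but 96% of all windows hold it. The RUNX core TGTGGT was found in 1 window, the Lck window that starts its gene furthest upstream, against 16.8% of all windows. The octamer ATGCAAAT (1.74% of all windows), the EBF half-site pair CCCNNGGG (13.7%) and the TATA box TATAAA (13.6%) were in none of the 7. All these searches covered both strands. The matches describe letters in these windows and not the binding of a factor.

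Levels are given as FPKM, fragments scaled to transcript length and to the mapped fragments of the library, as the authors deposited them. FPKM is per length, so levels of different genes can be set beside each other. The libraries summed to between 389407 and 552604 FPKM and listed between 22683 and 24837 genes above 0.0001, the value the table holds where it would otherwise have 0, called the floor here. The table also holds 134 values below 0.0001, in 43 genes, none of them a gene of the 9. Relative depths read from the steps of low values lay between 0.905 and 1.12 of that of db/db mouse 2, and read counts were not at hand. The limma test used log2(FPKM + 1) of the 15150 genes with at least 0.5 FPKM in at least 4 libraries. The study called a gene when its fold change was 1.5 or more and its p, before adjustment, was under 0.05. By that rule 231 genes (1.52% of those tested) were called, 165 higher and 66 lower in rFGF4. None had an adjusted p under 0.05, and 700 had an unadjusted p under 0.05. A pair of libraries stood apart. db/db mouse 5 had the highest levels of lymphocyte genes. rFGF4 mouse 1 had 184 summed FPKM of 4 proximal tubule genes, against 586 to 1028 in the other 7, and 120 of 5 haemoglobin and other red blood cell genes, against 436 to 4325. Tubule genes such as Slc34a1 and Umod were abundant in all 8. Of the 4 adipose genes, looked at because the extraction label mentions adipose tissue, 1 was at the floor in all libraries and the summed level was at most 0.579 FPKM.

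Cd3g, a signalling chain of the T cell receptor complex, had the highest peak among the T cell genes. Its level was 4.67, 0.9998, 0.155 and 0.311 FPKM in rFGF4 mice 1, 2, 3 and 5, and 0.0756, 0.411, 0.149 and 10.1 FPKM in db/db mice 2, 3, 4 and 5. The highest kidney was thus a control and the next a treated one, with a ratio of 2.15 between them, and the groups overlapped. Cd3e, its partner chain, was at 1.23, 0.422, 0.0460 and 0.129 FPKM in the rFGF4 mice in the same order, and at 0.0630, 0.0887, 0.0918 and 2.94 FPKM in the db/db mice. db/db mouse 5 was 33.1 times the median of the other 3 controls for Cd3e and 67.3 times for Cd3g. The ratio of Cd3g to Cd3e in FPKM lay between 1.20 and 4.64 over the 8 libraries.

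The co-receptor genes were also highest in db/db mouse 5, and next highest in rFGF4 mice 1 and 2. Cd4, carried by helper T cells and in part by macrophages and dendritic cells, was at 1.31, 1.07, 0.0812 and 0.226 FPKM in the rFGF4 mice and at 0.0744, 0.144, 0.117 and 5.08 FPKM in the db/db mice. Cd8a, of cytotoxic T cells and some dendritic cells, was at 0.785, 0.914, 0.367 and 0.0975 FPKM in the rFGF4 mice and at 0.166, 0.174, 0.106 and 1.86 FPKM in the db/db mice. Cd8a was the one T cell gene for which rFGF4 mouse 2, and not rFGF4 mouse 1, came second. The ratio of Cd4 to Cd8a in FPKM ran from 0.221 in rFGF4 mouse 3 to 2.73 in db/db mouse 5, and exceeded 1 in 3 of the 4 rFGF4 mice and in 2 of the 4 db/db mice.

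Lck, the kinase that starts signalling at the receptor, was at 2.24, 1.17, 0.439 and 0.359 FPKM in the rFGF4 mice. In the db/db mice it was at 0.224, 0.332, 0.142 and 4.12 FPKM. The 4 rFGF4 mice all lay above db/db mice 2, 3 and 4 for Lck, and db/db mouse 5 lay above all 4. Its ratio of the highest to the second kidney, 1.84, was the smallest among the 9 genes.

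The pair of B cell receptor genes reached the highest levels of the 9 genes, both of them in db/db mouse 5. Cd79a was at 2.42, 0.258, 0.230 and 0.854 FPKM in the rFGF4 mice and at 0.138, 1.03, 0.0954 and 30.6 FPKM in the db/db mice. Cd79b, which pairs with it, was at 2.04, 0.514, 0.484 and 0.472 FPKM in the rFGF4 mice and at 0.213, 0.986, 0.582 and 14.4 FPKM in the db/db mice. For both, db/db mouse 5 was far above every other kidney, rFGF4 mouse 1 came next and db/db mouse 3 after it. Cd79a in db/db mouse 5 was 12.7 times and Cd79b 7.08 times the second highest kidney.

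Ms4a1 and Cr2, genes of mature B cells, had the lowest median levels of the 9 genes. Ms4a1 was at 0.112 FPKM in rFGF4 mouse 1 and 0.0358 in rFGF4 mouse 5 and was listed at the floor in rFGF4 mice 2 and 3. In the db/db mice it was at 0.0249, 0.0585, the floor and 1.88 FPKM in mice 2, 3, 4 and 5. db/db mouse 5 was 16.8 times the second highest kidney for Ms4a1, the highest such ratio among the 9 genes. Cr2 was at 0.0371, 0.0176, 0.0216 and 0.0123 FPKM in the rFGF4 mice and at 0.1004, 0.0232, 0.0327 and 0.439 FPKM in the db/db mice. Cr2 was the exception among the 9, since a control, db/db mouse 2, came second and rFGF4 mouse 1 only after it.

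**Figure D1:**
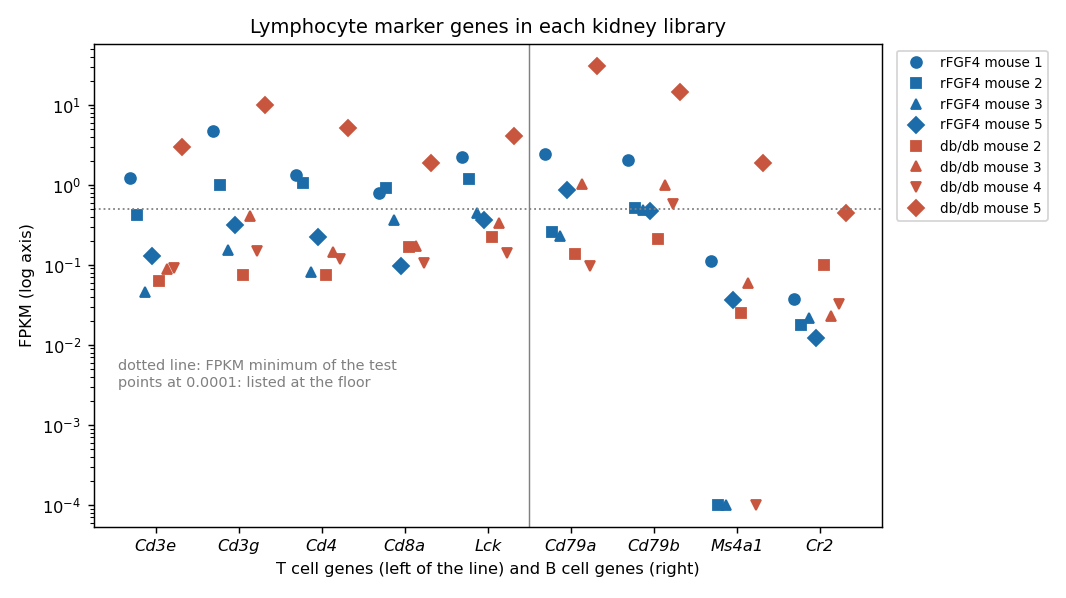
Level of each of the 9 lymphocyte marker genes in each kidney (FPKM, log axis), with 1 point per mouse, rFGF4 in blue and db/db in red, and the marker shape giving the mouse number. db/db mouse 5 is the top point of all 9 genes, with Cd79a at 30.6 FPKM, and the 2 groups overlap for each gene.

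Counted over the members, db/db mouse 5 was the highest of the 8 libraries for 9 of 9 genes, where it was highest for 18.2% of the 30244 genes above the floor in any library. It was at least 2 times the second library for 8 of 9 (all 4 B cell genes and all T cell genes except Lck), against 5.98% of those genes. These genes share a library and cell types and are not 9 independent observations. rFGF4 mouse 1 was second for 7 of the 9 (4 T cell and 3 B cell genes). rFGF4 mouse 2 was above db/db mice 2, 3 and 4 for 5 of 5 T cell genes and for 0 of 4 B cell genes. For these counts of treated mice the share of all genes was not counted. The ratio of db/db mouse 5 to the second kidney ran from 1.84 to 3.86 over the T cell genes and from 4.37 to 16.8 over the B cell genes, and these ranges did not overlap. Taken to the median of the other 3 controls instead, the ratio ran from 11.2 to 67.3 over the T cell genes and from 13.4 to 222 over the B cell genes, and the ranges overlapped.

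Ordered by their median over the 8 libraries, the levels were 0.556 FPKM for Cd79a, 0.548 for Cd79b, 0.399 for Lck, 0.361 for Cd3g, 0.271 for Cd8a, 0.185 for Cd4, 0.110 for Cd3e, 0.0303 for Ms4a1 and 0.0279 for Cr2. Only 2 steps in this order held in 8 of 8 libraries, namely Cd4 above Cd3e and Cd3e above Ms4a1. Cd79a was above Cd79b in 4 of 8, Lck above Cd3g in 4 of 8, Cd8a above Cd4 in 3 of 8 and Ms4a1 above Cr2 in 4 of 8, so these neighbours were not separated beyond their spread.

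The balance of the T cell and B cell genes also changed from kidney to kidney. The 5 T cell genes summed to 10.2, 4.57, 1.09 and 1.12 FPKM in rFGF4 mice 1, 2, 3 and 5, and to 0.603, 1.15, 0.605 and 24.1 FPKM in db/db mice 2, 3, 4 and 5. The 4 B cell genes summed to 4.6, 0.790, 0.735 and 1.37 FPKM in the rFGF4 mice and to 0.476, 2.10, 0.710 and 47.4 FPKM in the db/db mice. The ratio of the T to the B sum was thus highest in rFGF4 mouse 2, at 5.79, followed by rFGF4 mouse 1 at 2.23 and rFGF4 mouse 3 at 1.48. It was lowest in db/db mouse 5, at 0.508, next to 0.548 in db/db mouse 3, and the other 3 kidneys lay between 0.817 and 1.26. The groups overlapped in this ratio as well, through rFGF4 mouse 5 and db/db mice 2 and 4.

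**Figure D2:**
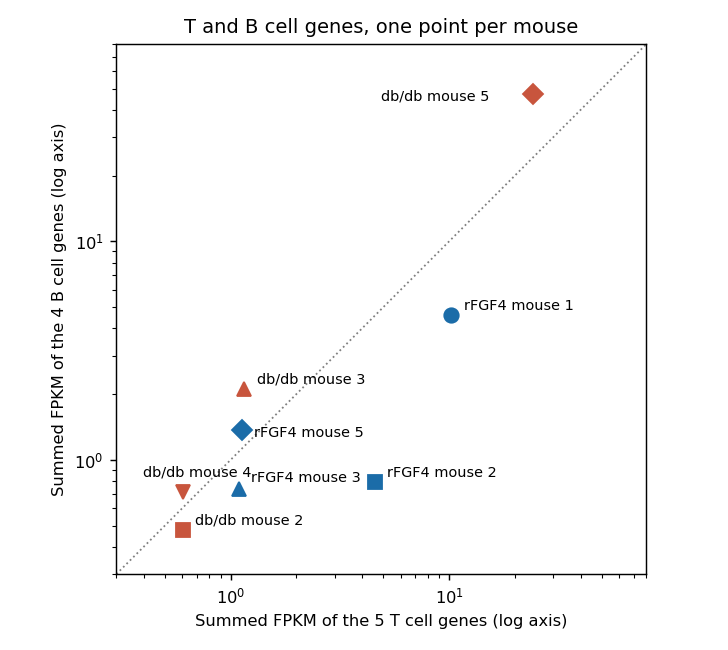
Summed FPKM of the 5 T cell genes (x axis, log) against that of the 4 B cell genes (y axis, log), with 1 labelled point per mouse and a dotted line of equal sums. db/db mouse 5 lies at 24.1 and 47.4 FPKM above the line, whereas rFGF4 mouse 2 lies furthest below it at 4.57 and 0.790 FPKM.

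The comparison of rFGF4 with db/db called 0 of the 9 genes. Only Cd79a and Cd79b reached the minimum for testing, with at least 0.5 FPKM in 4 and 5 libraries, and the other 7 did not. The mean level of Cd79a was 0.939 ± 1.02 FPKM in rFGF4 and 7.98 ± 15.1 FPKM in db/db (SD, n = 4 each). Its log2 fold change, rFGF4 minus db/db on the log2(FPKM + 1) scale, was -0.76 with a standard error of 1.03 (limma, adjusted p = 0.939). Cd79b averaged 0.876 ± 0.773 FPKM in rFGF4 and 4.05 ± 6.92 FPKM in db/db (SD, n = 4 each), with a log2 fold change of -0.64 and a standard error of 0.75 (limma, adjusted p = 0.930). Both standard errors were larger than the differences. On this scale fold changes between low FPKM values are shrunk the most. With a pseudocount of 0.1 the log2 fold change was -0.63 for Cd79a and -0.74 for Cd79b.

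The 7 genes below the minimum had log2 fold changes on the same scale of -0.10 for Cd3e, -0.04 for Cd3g, -0.10 for Cd4, 0.06 for Cd8a, 0.13 for Lck, -0.36 for Ms4a1 and -0.15 for Cr2. The median over the 9 was -0.10, beside 0.09 over all tested genes and 0.014 over the genes of the fit with no filter. An exact two-sided permutation test of each gene (n = 4 per group, smallest possible p = 0.0286) gave p between 0.114 for Cr2 and 0.943 for Cd4. With scaling by a common median ratio the exact permutation p of Cr2 was 0.0571. With no filter, limma gave adjusted p between 0.914 and 0.997 for the 9 genes, and called none of them, where 0.751% of 30244 genes were called. The levels of rFGF4 and db/db overlapped for 9 of 9 genes. Of the tested genes 3.33% had groups that did not overlap, so a count of 0 is near the background. The 7 genes below the minimum were not among those tested. A p that misses the threshold does not show that the groups had equal levels, since the spread within db/db was wide.

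The sign of the difference depended on single kidneys, db/db mouse 5 above all, and for some genes on the setting. With all 8 mice, 2 of 9 genes were higher in rFGF4 in the main fit. With a pseudocount of 0.1 or with array weights 5 of 9 were higher, all of them T cell genes. Without db/db mouse 5, 8 of the 9 genes were higher in rFGF4 on the main scale, all 5 T cell genes and 3 of 4 B cell genes. The log2 fold changes became 0.36 for Cd3e, 0.76 for Cd3g, 0.51 for Cd4, 0.39 for Cd8a, 0.65 for Lck, 0.38 for Cd79a, 0.19 for Cd79b, 0.01 for Ms4a1 and -0.04 for Cr2. The median over the 9 moved from -0.10 to 0.38, beside 0.15 over the tested genes and 0.033 over the genes of the fit with no filter.

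Again 0 of the 9 genes were called without that mouse. In the limma fit with no filter their adjusted p lay between 0.751 and 0.934, and the lowest unadjusted p was 0.0874, for Lck. In that fit 0.860% of the 30244 genes were called as higher in rFGF4, and with the filter 2.85% of the tested genes were called in either direction. Among the 4 rFGF4 mice the excess over db/db mice 2, 3 and 4 lay mostly in mice 1 and 2. rFGF4 mouse 1 was above all 3 of these controls for 8 of 9 genes, rFGF4 mouse 2 for 5, rFGF4 mouse 5 for 3 and rFGF4 mouse 3 for 2. The share of all genes was not counted beside these, and the levels were not rescaled. In the scaling by a common median ratio, the factor was 1.3, 1.07, 0.956 and 0.94 in rFGF4 mice 1, 2, 3 and 5. In db/db mice 2, 3 and 4 it was 0.909, 0.953 and 0.907, so the level of a typical gene was also higher in rFGF4 mouse 1. With db/db mouse 5 kept and rFGF4 mouse 1 left out instead, 9 of 9 genes were lower in rFGF4, with a median of -0.33. Leaving out db/db mouse 2, 3 or 4 also gave 9 of 9 lower, with medians of -0.32, -0.25 and -0.30. Without rFGF4 mouse 2, 3 or 5 the genes higher in rFGF4 numbered 1, 5 and 4, all of them T cell genes.

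**Figure D3:**
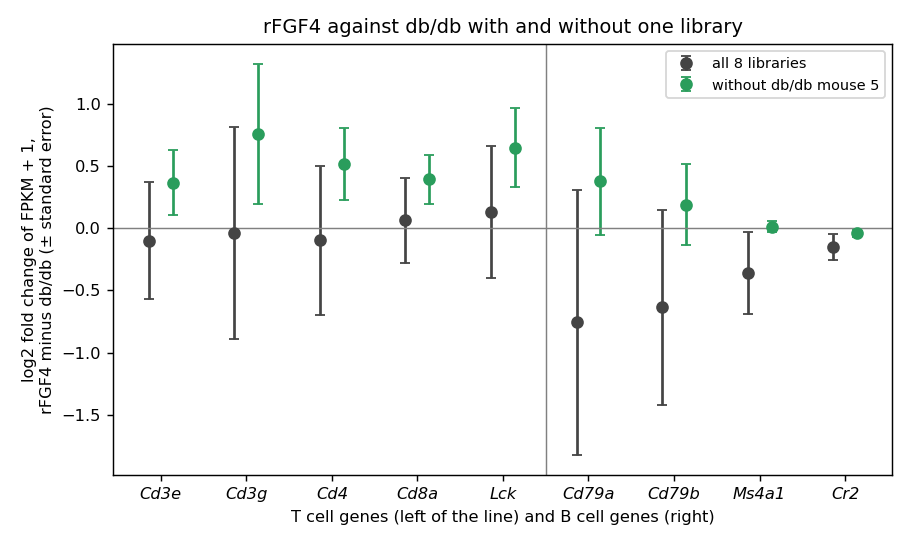
Log2 fold change of FPKM + 1, rFGF4 minus db/db, for each of the 9 genes, with standard errors of the limma fits with no filter as bars, over all 8 libraries (grey) and without db/db mouse 5 (green). Without that mouse 8 of the 9 points lie above 0, with Cd3g moving from -0.04 to 0.76 and Cd79a from -0.76 to 0.38.

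Other genes of the 2 lineages moved with the members. In the list of T cell receptor complex and signalling genes, db/db mouse 5 was highest for 14 of 15, with a median ratio of 2.23 to whichever other mouse was highest. Trbc2, a constant gene of the receptor's beta chain, was at 10.7, 2.42, 0.697 and 0.632 FPKM in the rFGF4 mice and at 0.380, 0.859, 0.585 and 23.9 FPKM in the db/db mice. This is the order of kidneys seen for Cd3g, except that rFGF4 mice 3 and 5 changed places. Of other T cell identity genes 11 of 14 were highest in db/db mouse 5, with a median ratio of 1.76. Gata3, the most abundant of them, lay between 3.19 and 6.07 FPKM in all kidneys and was not among the 11.

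In the B cell receptor list db/db mouse 5 was highest for 10 of 13 genes, with a median ratio of 1.80, and among other B cell identity genes for 11 of 12, with a median ratio of 5.98. Igkc, the constant gene of the kappa light chain, was at 2640, 662, 68.0 and 623 FPKM in the rFGF4 mice and at 57.6, 1416, 22.4 and 22334 FPKM in the db/db mice. db/db mouse 5 was again far above the rest, and db/db mouse 3 exceeded 3 of the 4 rFGF4 mice. Pou2af1, a B cell coactivator, was at 2.09, 0.428, 0.125 and 0.592 FPKM in the rFGF4 mice and at 0.101, 1.24, the floor and 13.0 FPKM in the db/db mice. Cd74, the most abundant of the other B cell identity genes, was at 1084 FPKM in db/db mouse 5. It was at 755 FPKM in rFGF4 mouse 1, the second kidney, a ratio of 1.44, well below the list median. Cd81, which joins Cr2 in the co-receptor but is made by most cells, lay between 57.4 and 63.7 FPKM in all 8 kidneys. In none of these 4 lists did a gene pass the threshold of rFGF4 against db/db, of 20 tested genes in all, with or without db/db mouse 5. Of all tested genes 1.52% passed with that mouse and 2.85% without it, so none of 20 is near the background.

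Markers of other cell types also differed between the kidneys. db/db mouse 5 was highest for 6 of 8 plasma cell genes (median ratio 3.46), for 6 of 9 NK and cytotoxic genes (1.61), for 6 of 8 pan-leukocyte genes (1.56) and for 5 of 6 dendritic cell genes (1.32). It was highest for 8 of 9 lymph node and follicle genes, at least 2 times the second kidney for those 8, with a median ratio of 5.37. That list also holds genes that lymphocytes make, Ltb, Fcmr and Tnfsf11, and without them the count was 5 of 6 with a median ratio of 4.36. Some of these 6 were at the floor in most kidneys or in db/db mouse 5, so their ratios rest on very low levels. Cxcl13, a chemokine that draws B cells into follicles, was at 3.97, 3.67, 1.62 and 0.614 FPKM in the rFGF4 mice and at 0.752, 3.18, 0.437 and 21.3 FPKM in the db/db mice. Ccl21a, a chemokine of lymph node stroma and lymphatics, was at 20.5 FPKM in db/db mouse 5 and between 2.12 and 6.12 FPKM in the other 7. Their part in the levels of the 9 genes was not tested.

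**Figure D4:**
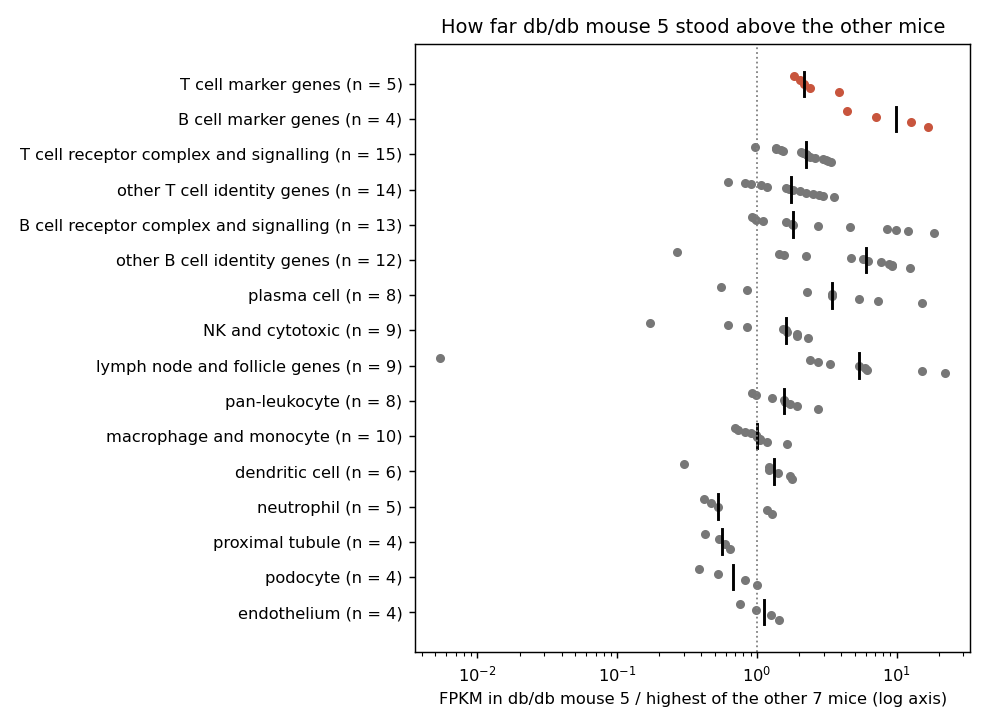
FPKM in db/db mouse 5 divided by the highest FPKM among the other 7 mice (x axis, log), with 1 point per gene, grouped by marker list, and a black bar at each list's median. The B cell genes have a median of 9.89 and the T cell genes of 2.15, the lymph node and follicle list lies at 5.37, and the macrophage list lies at 0.993.

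Macrophage and monocyte genes were high in both db/db mouse 5 and rFGF4 mouse 1. Each of these 2 mice was highest for 5 of 10 macrophage genes, and their summed levels were 1854 and 1340 FPKM, against 49.3 to 485 FPKM in the other 6. The B cell genes differed between the same 2 mice by 10.3 times in their summed level and the T cell genes by 2.35 times. The summed neutrophil genes, in which S100a9 and S100a8 weigh most, were highest in db/db mouse 3, at 391 FPKM, with 242 in rFGF4 mouse 1 and 189 in db/db mouse 5, and db/db mouse 5 was highest for 2 of the 5. Of the structural kidney lists, db/db mouse 5 was highest for 0 of 4 proximal tubule, 0 of 4 thick ascending limb and distal tubule, 0 of 3 collecting duct, 1 of 4 podocyte and 2 of 4 endothelium genes. It was highest for 0 of 5 red blood cell and 0 of 4 adipose genes. The kidneys rich in T cell genes were therefore not alike in their other markers. rFGF4 mouse 1 had the lowest proximal tubule and red blood cell sums of all 8, and rFGF4 mouse 2 had 656 summed FPKM of proximal tubule genes, within the range of the others. The part of the low tubule share in the levels of rFGF4 mouse 1 was not tested. Of the 14 lists of other cell types, 1 tested gene passed the threshold, the podocyte gene Synpo (log2 fold change 0.87, limma adjusted p = 0.918). Without db/db mouse 5 the plasma cell gene Xbp1 (0.99) and the dendritic cell gene Itgax (1.25) passed as well and all 5 red blood cell genes passed as lower, with a list median of -2.37, beside -1.97 with all 8 libraries. The adjusted p of each of these was 0.620 (limma), in a fit that called 2.85% of all tested genes. Synpo was named after its values were seen.

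**Figure D5:**
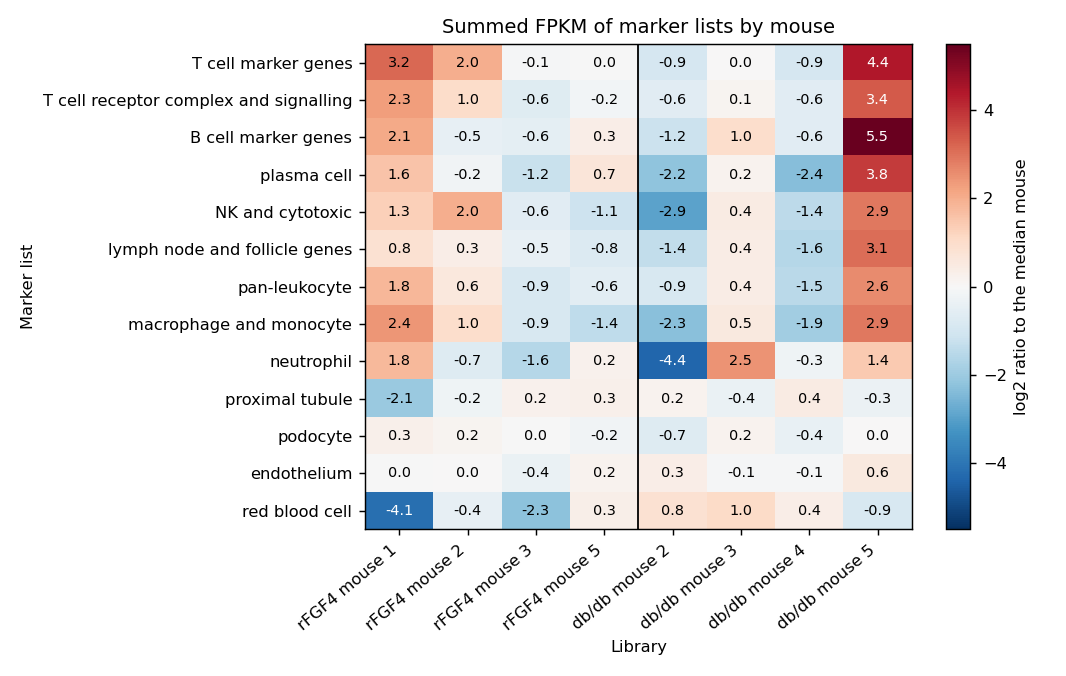
Summed FPKM of each marker list (rows) in each kidney (columns), as log2 of the ratio to the median of the 8 mice, in red where above and in blue where below it. db/db mouse 5 stands at 4.40 for the T cell and 5.45 for the B cell genes, and rFGF4 mouse 1 at 3.17 and 2.09, with -2.05 for proximal tubule.

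Set against leukocyte genes as a whole, the share of the lymphocyte genes also differed. The 5 T cell genes came to 6.80%, 7.06%, 4.62% and 3.97% of the summed FPKM of the 8 pan-leukocyte genes in rFGF4 mice 1, 2, 3 and 5, and to 2.62%, 2.01%, 3.90% and 9.23% in db/db mice 2, 3, 4 and 5. This share was highest in db/db mouse 5, but the place of db/db mouse 2 rested on 1 gene, Arhgdib, which made up 16.4 of its 23.0 summed FPKM. Without Arhgdib the T cell share of db/db mouse 2 was 9.19%, above the 6.70% to 8.86% of the rFGF4 mice, while those of db/db mice 3, 4 and 5 were 2.58%, 6.18% and 10.3%. Set against the macrophage genes, the T cell share lay between 0.764% and 1.21% in rFGF4 and between 0.322% and 1.298% in db/db, so the groups overlapped. The 4 B cell genes came to 18.2% of the pan-leukocyte sum in db/db mouse 5 and to between 1.22% and 4.85% in the other 7. Without Arhgdib it was 20.3% against 1.53% to 8.2%, and the rFGF4 mice and the other 3 controls overlapped either way. Of the macrophage sum they came to 2.56% in db/db mouse 5 and to between 0.163% and 1.48% in the other 7.

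Of the 15148 other tested genes, those most alike the members were found by Pearson's r with the mean standardised log2(FPKM + 1) profile of 8 members (Cr2, below 0.1 FPKM on average, was left out). The 10 nearest, from r = 0.993 to r = 0.982 over 8 libraries, were 3 immunoglobulin heavy chain variable genes (among them Ighv1-15 and Ighv14-4), the lymphocyte adaptor Lax1, the haematopoietic kinase Map4k1, the T cell receptor constant gene Trbc1, the collagen receptor Ddr2, the matrix gene Fbln7, the cytokine Il33 and AI467606. The profile and these genes share their libraries, db/db mouse 5 among them. Without that mouse, r over 7 libraries was 0.988 for Map4k1 and 0.982 for Trbc1, and lowest among the 10 at 0.876 for Ighv14-4. Map4k1 was at 1.93, 0.771, 0.287 and 0.361 FPKM in the rFGF4 mice and at 0.0597, 0.562, 0.137 and 5.07 FPKM in the db/db mice, which is the order of kidneys seen for Cd3g. The Ighv genes belong to a family of near-identical copies, so their FPKM are uncertain. Only Trbc1 among the 10 was in one of the lists above.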

How the data were processed

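Whole kidney of 4 rFGF4 and 4 db/db mice was profiled by paired-end sequencing of poly(A) RNA. The authors deposited 1 gene table of FPKM values, made with StringTie. Per the submitters' processing notes Bowtie 0.12.2, HISAT2 2.0 and StringTie 1.3.0 and the build mm8 were used, with no role given. The table holds Ensembl identifiers and no coordinates, and 99.53% of the 55401 identifiers were found in GENCODE M21. Its columns of the authors' own fold changes, p-values and q-values were not used. No read counts were at hand, so absolute depth is unknown and count tests were not run.

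FPKM were taken as log2(FPKM + 1), genes with at least 0.5 FPKM in at least 4 libraries were kept, and rFGF4 was compared with db/db by limma 3.58.1 (R 4.3.3) with an intensity trend and Benjamini-Hochberg adjustment, over all 15150 genes kept. The steps were tested on simulated data. The study's threshold was used for calls. Each marker gene was also tested by an exact two-sided permutation test (scipy 1.17.1). The 9 genes, 18 further lists of 137 genes and the tests were chosen with earlier results of these data known. Named beside the 9 are genes among the 3 with the highest mean FPKM of each list, and the 10 genes nearest the members' profile. Alternatives were a pseudocount of 0.1, a minimum of 0.1 FPKM, no filter, scaling by a common median ratio, array weights, a replicate block and leaving out each mouse. The 2 settings that join leaving out db/db mouse 5 with no filter were chosen after seeing the data, as were the shares without Arhgdib and the lymph node list without its lymphocyte genes. Groups were taken from the labels, which name no batch. Same-numbered mice were not taken as pairs.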

Additional observations from a re-analysis of the deposited data

Results flagged for a closer look

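The gap of the most distant mouse to its nearest neighbour, divided by the whole range of its group, was examined in 24 groups of 4 mice, and 8 exceeded the limit of Dixon's test, where chance flags about 1 in 20. In 7 of the 8 the distant mouse was db/db mouse 5. On log2(FPKM + 1), its gap was 0.980 of the range of the db/db group for Cd3e, 0.964 for Cd4, 0.946 for Ms4a1, 0.937 for Cd8a, 0.897 for Lck and 0.883 for Cd3g, and 0.893 for the sum of the T cell genes. The remaining one was rFGF4 mouse 1 for Cd79b, with a gap of 0.961 of the range of the rFGF4 group. The genes share their libraries, so these 8 are not independent.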

How the results depend on the processing

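No gene of the 9 that was tested was called under any setting run, but all 9 were tested only where no filter was used, 7 with a minimum of 0.1 FPKM and only Cd79a and Cd79b otherwise. The 231 genes called over the whole table became 348 with a pseudocount of 0.1, 490 with array weights, 1022 with a pseudocount of 0.1, no filter and no db/db mouse 5, and between 187 and 575 on leaving out 1 mouse (575 without rFGF4 mouse 5, 432 without db/db mouse 5). Scaling by a common median ratio gave 93 higher and 81 lower calls in place of 165 and 66. The cause of these changes was not tested.

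The signs of single genes depended on the setting. With a pseudocount of 0.1 the log2 fold changes of Cd3e, Cd3g and Cd4 were 0.094, 0.32 and 0.26, and with array weights 0.084, 0.24 and 0.28. Leaving out 1 mouse gave -0.33 to 0.36 for Cd3e, -0.54 to 0.76 for Cd3g, -0.32 to 0.51 for Cd4, -0.067 to 0.39 for Cd8a, -0.12 to 0.65 for Lck, -1.24 to 0.38 for Cd79a, -1.03 to 0.19 for Cd79b and -0.50 to 0.012 for Ms4a1. Cr2 stayed negative, at -0.21 to -0.04. With no filter and no db/db mouse 5 the values were those at the upper ends, 0.36, 0.76, 0.51, 0.38, 0.19 and 0.012 for Cd3e, Cd3g, Cd4, Cd79a, Cd79b and Ms4a1. With a pseudocount of 0.1 in addition they were 1.11, 1.61, 1.41, 0.96, 0.41 and 0.054, beside 1.12 for Cd8a, 1.52 for Lck and -0.29 for Cr2, with a median over the 9 genes of 1.11. Lck had the lowest unadjusted p there, 0.0544 (limma, adjusted p = 0.724).

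With the replicate number as a block, 9 of 9 genes were lower in rFGF4, with a median of -0.48. Cd8a and Lck were at -0.15 and -0.33 and Cd79a at -1.56, and 262 genes were called over the table. rFGF4 mouse 1 and db/db mouse 4 have no same-numbered partner, so the difference in this fit rests on mice 2, 3 and 5 alone. Same-numbered mice did not deviate together (correlations of -0.23, -0.16 and -0.39 for mice 2, 3 and 5), so this pairing has no support in the data. Exact tests without 1 mouse cannot go below p = 0.0571 and were not run.

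Most member levels lie under 1 FPKM, and without read counts no interval for counting error can be given.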
